A study of Mus musculus with 8 samples.

Results

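The NCAM, L1 and contactin families are cell-surface proteins built from immunoglobulin and fibronectin type III domains, best known from axons, synapses and the insulated stretches of myelinated nerve. NCAM proteins adhere to copies of themselves on the neighbouring cell and can carry long chains of polysialic acid. L1-type proteins span the membrane and anchor to the spectrin skeleton through ankyrins, while contactins lack a cytoplasmic part and are held by a lipid anchor. In the developing kidney Ncam1 is known from the mesenchyme that condenses around the ureteric bud and from early nephrons, and L1cam from the ureteric epithelium itself.

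The 10 genes described are Ncam1 and Ncam2, the L1-type genes L1cam, Chl1, Nrcam and Nfasc, and the contactin genes Cntn1, Cntn3, Cntn4 and Cntn6, out of 22180 genes measured. The families were taken up because Ncam2 had been seen to rise in these arrays, so Ncam2 was chosen by its own difference between the groups and is given as a description, with no test. The other members are further genes of these families, chosen with results of the same arrays known. They are not all of them: Cntn2 and Cntn5, contactins that were measured too, are given with the related genes instead. Each of the 10 genes had 1 probe set, the group of array probes that reads it, with no other gene named on it.

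The RNA came from whole embryonic mouse kidneys, taken at E14.5 (E for embryonic day), with both kidneys of an embryo pooled into 1 sample and hybridised to 1-colour arrays. In 4 embryos, called Grb2_cKO here, Grb2 was knocked out in the ureteric bud (genotype Grb2 UB-cKO), and 4 littermates were wild-type controls. The labels name neither the Cre driver behind the knockout nor the strain or sex of the embryos. GRB2 couples receptor tyrosine kinases such as RET to RAS and ERK signalling, and the comparison asks what its loss in the bud does to the kidney transcriptome. Since all 8 embryos shared a litter, p-values measure the spread between embryos of 1 litter only, and replicate numbers pair nothing between the groups.

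Across the arrays the medians lay between 6.61 and 6.72 on the log2 scale, and the number of arrays limits the precision. Grb2 itself was lower in Grb2_cKO, at 8.20 ± 0.12 against 8.65 ± 0.03 in controls (SD, n = 4 each), a log2 fold change of -0.45 (SE 0.07, limma adjusted p = 0.0017). The kidney genes Six2, Wt1 and Podxl stood at 11.4, 10.5 and 10.3 in controls. Eif2s3y, Kdm5d and Uty, 3 genes of the Y chromosome, had a mean of 9.94 to 10.1 in the 4 Grb2_cKO embryos and of 9.94 in control replicate 3, but of 4.09 to 4.24 in control replicates 1, 2 and 4. Sex therefore moved with the groups. Members' values are also set against control replicate 3 or given with that mean as a covariate (the Y-linked covariate). Because only 1 control had high Y-linked values, estimates with the covariate rest mainly on control replicate 3, while their spread is drawn from all embryos. For Chl1 that model gave 1.25, and the Grb2_cKO mean lay 1.25 above control replicate 3. In whole-kidney RNA, fewer cells of a type and less RNA per cell cannot be told apart.

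The stretches of 250 bases before the start of transcription are shown for the 5 members that were furthest above the controls and for L1cam, which was below them, so that the start regions of genes that moved apart can be compared. They were read from RefSeq's GRCm38.p6 sequence, 5′ to 3′ on the strand of the gene and for the outermost start where a gene has several. Of the 10 members 9 had an entry, all but Ncam1. Capitals mark matches, on either strand, to 5 short motifs. A GC box was spelled GGGCGG, the box of the CCAAT type by those letters, a TATA box with the letters TATAAA, an E-box with CAGCTG, and an ETS-type site with CGGAAG. No matches to different motifs overlapped in the stretches shown.
Ncam2, chr16:81200447-81200696, plus strand: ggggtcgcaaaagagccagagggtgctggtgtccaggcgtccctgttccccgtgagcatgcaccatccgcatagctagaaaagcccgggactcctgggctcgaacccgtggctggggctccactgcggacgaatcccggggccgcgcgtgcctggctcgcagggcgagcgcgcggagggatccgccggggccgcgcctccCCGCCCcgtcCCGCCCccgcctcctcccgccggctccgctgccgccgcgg
Chl1, chr6:103510626-103510875, plus strand: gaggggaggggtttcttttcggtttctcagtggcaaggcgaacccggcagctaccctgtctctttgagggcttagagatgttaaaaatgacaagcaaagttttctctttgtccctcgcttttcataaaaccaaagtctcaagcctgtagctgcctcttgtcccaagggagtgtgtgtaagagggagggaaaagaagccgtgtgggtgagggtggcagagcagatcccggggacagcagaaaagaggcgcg
Cntn1, chr15:92050915-92051164, plus strand: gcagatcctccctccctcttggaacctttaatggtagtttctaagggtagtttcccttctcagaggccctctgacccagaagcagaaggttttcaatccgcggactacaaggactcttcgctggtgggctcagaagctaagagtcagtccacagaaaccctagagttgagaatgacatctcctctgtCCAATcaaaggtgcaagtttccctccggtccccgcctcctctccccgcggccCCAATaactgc
Cntn4, chr6:106118515-106118764, plus strand: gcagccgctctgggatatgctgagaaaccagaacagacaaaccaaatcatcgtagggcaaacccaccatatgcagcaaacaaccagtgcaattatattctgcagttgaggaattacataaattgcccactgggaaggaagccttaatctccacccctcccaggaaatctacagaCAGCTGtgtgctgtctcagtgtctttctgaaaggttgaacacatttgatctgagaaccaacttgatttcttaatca
Cntn6, chr6:104492794-104493043, plus strand: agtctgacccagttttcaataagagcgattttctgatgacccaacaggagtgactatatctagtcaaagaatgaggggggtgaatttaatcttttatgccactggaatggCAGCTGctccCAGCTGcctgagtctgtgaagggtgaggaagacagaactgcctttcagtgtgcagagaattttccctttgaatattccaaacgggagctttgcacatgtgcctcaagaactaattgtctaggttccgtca
L1cam, chrX:73880835-73881084, minus strand: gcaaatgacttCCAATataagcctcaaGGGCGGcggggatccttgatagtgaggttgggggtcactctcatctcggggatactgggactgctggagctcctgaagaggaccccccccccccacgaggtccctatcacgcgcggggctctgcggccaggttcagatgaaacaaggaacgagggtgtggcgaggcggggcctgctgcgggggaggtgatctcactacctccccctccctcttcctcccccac

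These start regions had little in common. GC content was 75.2% for Ncam2, with 32 CpG pairs in 250 bases, against 44.4% for Cntn4 and 45.2% for Cntn6, with 2 and 3 CpG pairs. Over 16990 measured genes with such a stretch the median was 55.6%, with a median of 10 CpG pairs. Cntn3, a contactin that did not pass the test, had the lowest GC content of the members, at 26.4%, and no CpG pair. The GC box stood in 4 of the 9 members and in 43.2% of all genes, and the CCAAT box in 2 members and 35.7% of all genes. The E-box was present once in Cntn4 and at 2 places in Cntn6, and in 12.2% of all genes. Neither the TATA box nor the ETS-type site was found in these stretches of the 9 members, against 11.9% and 17.2% of all genes. Which start the kidney uses, and which exons the probe sets read, was not tested.

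Ncam2, known from olfactory axons, showed the widest separation of the groups among the members. Its log2 values were 7.19, 7.05, 6.88 and 7.15 in control replicates 1 to 4, and 9.07, 8.89, 9.33 and 9.82 in Grb2_cKO replicates 1 to 4. The lowest Grb2_cKO embryo lay 1.70 above the highest control. The mean was 7.07 ± 0.14 in controls and 9.28 ± 0.40 in Grb2_cKO (SD, n = 4 each). It was 4.62-fold higher, a log2 fold change of 2.21 (SE 0.18). Of all 22180 genes, 0.0631% had a larger log2 difference in either direction. This value chose the family, so nothing is supported with it. Control replicate 3 was the lowest control, and the Grb2_cKO mean lay 2.39 above it.

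Ncam1, the main carrier of polysialic acid, was 12.02, 12.00, 11.98 and 12.03 in the controls and 12.22, 12.43, 12.24 and 12.42 in Grb2_cKO. The controls lay within 0.06 of each other and all 4 Grb2_cKO embryos above them. The log2 fold change was 0.32 (SE 0.07, limma adjusted p = 0.0084), a rise to 1.25-fold. With the Y-linked covariate it was 0.35 (adjusted p = 0.141), past the threshold of 0.05 no longer. The 2 NCAM genes thus differed from the controls in the same direction by unequal amounts. That inequality was not tested.

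**Figure D1:**
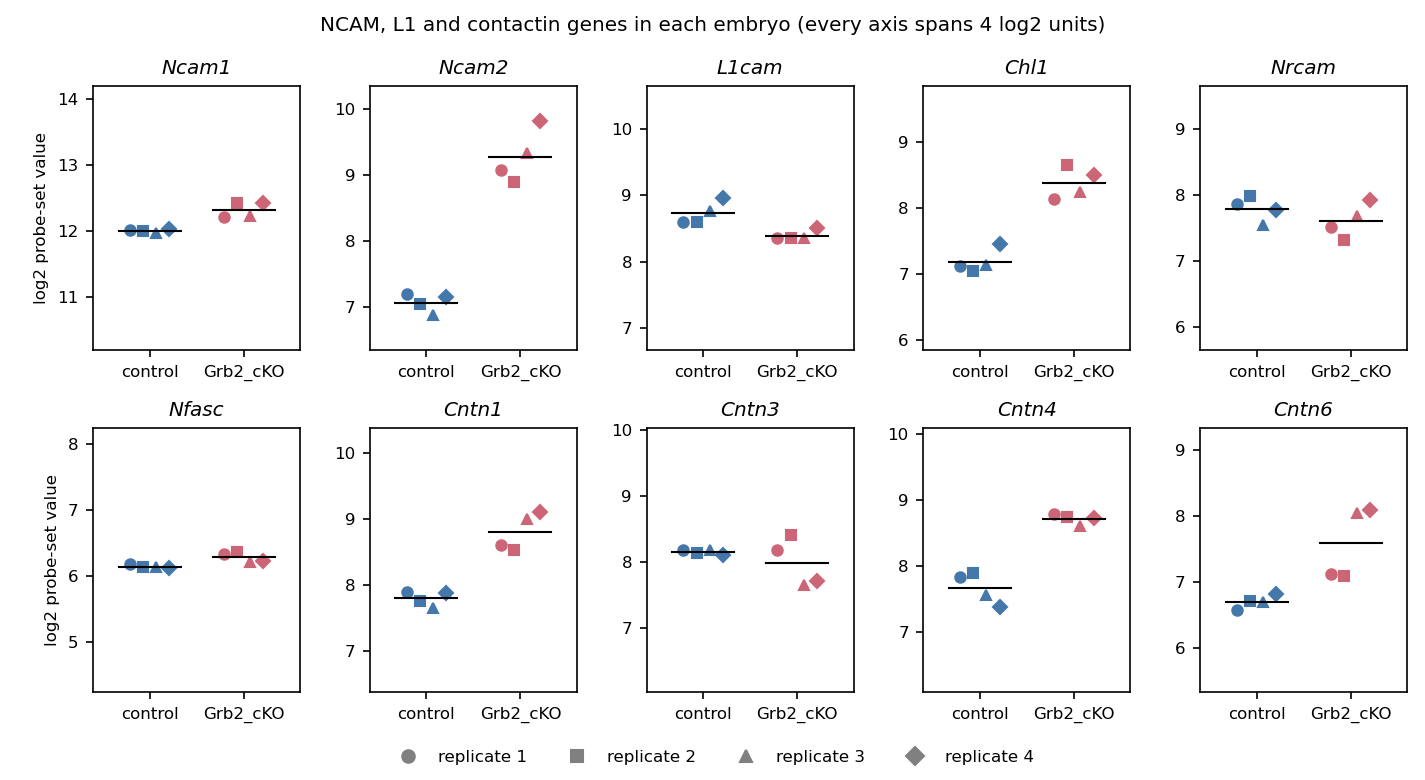
Log2 probe-set value of each member (vertical axis, of equal span in every panel) in 4 control and 4 Grb2_cKO embryos; each point is an embryo, its shape the replicate number, and the line the group mean. Ncam2, Chl1, Cntn1 and Cntn4 show wide gaps between the groups, L1cam lies lower in Grb2_cKO, and Nrcam and Cntn3 overlap.

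The L1-type genes went different ways. Chl1, the close homologue of L1, was 7.11, 7.03, 7.12 and 7.44 in the controls and 8.12, 8.65, 8.24 and 8.50 in Grb2_cKO, with a gap of 0.68 between the groups. It rose 2.30-fold (log2 fold change 1.20, SE 0.13, limma adjusted p = 0.000221), and remained past the threshold with the Y-linked covariate, at 1.25 (adjusted p = 0.0201). L1cam, the founding member, an X-linked gene, was 8.60, 8.61, 8.76 and 8.97 in the controls and 8.36, 8.35, 8.35 and 8.50 in Grb2_cKO. All Grb2_cKO embryos lay below all controls, by at least 0.09. It fell by 0.34 on the log2 scale (SE 0.09, adjusted p = 0.0204), and was 0.37 lower than in control replicate 3 alone (log2 difference -0.37). The call was lost with the Y-linked covariate (-0.37, adjusted p = 0.214). It was also lost without control replicate 3 (-0.33, adjusted p = 0.05001) or without Grb2_cKO replicate 3 (-0.33, adjusted p = 0.0544).

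Nrcam and Nfasc, which gather ion channels at the nodes and initial segments of axons, did not pass. Nrcam was 7.86, 7.98, 7.54 and 7.77 in the controls and 7.51, 7.31, 7.68 and 7.92 in Grb2_cKO, and the groups overlapped. Its log2 difference of -0.18 (95% interval -0.49 to 0.13, limma adjusted p = 0.389) turned to 0.07 with the Y-linked covariate (adjusted p = 0.895), and control replicate 3 was the lowest control. It was -0.12 without control replicate 2, -0.08 without Grb2_cKO replicate 2 and -0.29 without Grb2_cKO replicate 4 (adjusted p = 0.652, 0.704 and 0.131). Nfasc was 6.18, 6.13, 6.13 and 6.12 in the controls and 6.33, 6.36, 6.21 and 6.23 in Grb2_cKO. Those groups did not overlap, by a gap of 0.03, but the log2 difference of 0.14 (SE 0.06, adjusted p = 0.129) missed the threshold.

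Of the contactins among the members, Cntn1 and Cntn4 rose and Cntn3 did not change beyond its spread. Cntn1, which forms the axonal side of the paranodal junction together with Caspr, was 7.90, 7.76, 7.66 and 7.89 in the controls and 8.61, 8.53, 9.01 and 9.11 in Grb2_cKO. The groups lay 0.63 apart, and Cntn1 rose 2.02-fold (log2 fold change 1.01, SE 0.13, limma adjusted p = 0.00052). Cntn4, a contactin that binds amyloid precursor protein, was 7.83, 7.89, 7.55 and 7.39 in the controls and 8.79, 8.75, 8.60 and 8.72 in Grb2_cKO. Its Grb2_cKO embryos lay within 0.20 of each other and 0.71 above the highest control. Cntn4 rose 2.07-fold (1.05, SE 0.11, adjusted p = 0.000221). Both remained past the threshold with the Y-linked covariate, Cntn1 at 1.15 (adjusted p = 0.0230) and Cntn4 at 1.16 (adjusted p = 0.0149).

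Cntn6, a contactin of sensory and motor pathways in the brain, was 6.57, 6.71, 6.70 and 6.82 in the controls and 7.12, 7.08, 8.05 and 8.09 in Grb2_cKO. All Grb2_cKO embryos were above all controls, replicates 1 and 2 by little and replicates 3 and 4 by over a log2 unit. The log2 fold change was 0.89 (SE 0.23, limma adjusted p = 0.0162), and with the Y-linked covariate 0.88 (adjusted p = 0.229), no longer past the threshold. Cntn3 was 8.18, 8.13, 8.18 and 8.11 in the controls and 8.18, 8.41, 7.65 and 7.71 in Grb2_cKO. Here Grb2_cKO replicates 3 and 4 lay below every control and replicate 2 above every control. The log2 difference was -0.16 (95% interval -0.51 to 0.18, adjusted p = 0.507). It was -0.30 without Grb2_cKO replicate 2, -0.05 without replicate 3 and -0.07 without replicate 4 (adjusted p = 0.110, 0.861 and 0.796).

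**Figure D2:**
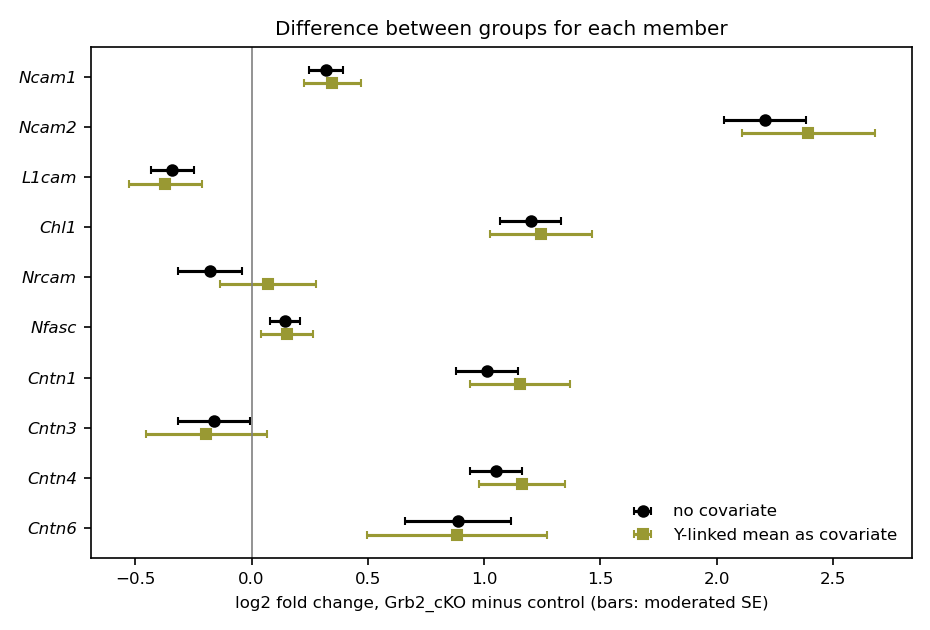
Log2 fold change of each member, Grb2_cKO minus control (horizontal axis), with the moderated standard error as bars, for the model without a covariate (circles) and with the Y-linked covariate (squares). Ncam2 stands at 2.21, Chl1, Cntn1 and Cntn4 between 1.01 and 1.20, and only Nrcam changes side between the models.

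Apart from Ncam2, which is not counted here, 5 of the 9 other members were called higher, 1 lower and 3 did not pass. Over all 22180 genes 28.1% were called, 13.7% higher and 14.3% lower. The groups did not overlap for 6 of these 9 higher and 1 lower in Grb2_cKO, against 15.2% and 16.0% of all genes. With the Y-linked covariate 3 of the 9 were called (Chl1, Cntn1 and Cntn4), all higher, against 5.62% of all genes. The median log2 fold change was 0.32 over the 9 and 0.01 over all genes. Cntn2 and Cntn5, contactins left out of the members, did not pass (log2 fold change -0.09 and -0.14, limma adjusted p = 0.576 and 0.341) and are not in these counts. Because the members were proposed with these differences in view, nothing is read from the counts.

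The Grb2_cKO embryos differed among themselves more than the controls did for most members. How many of all genes had a wider range in Grb2_cKO was not counted, so the wider range is not read as particular to the members. For Cntn6 the range was 1.01 in Grb2_cKO and 0.26 in controls, for Cntn3 0.76 and 0.07, for Ncam2 0.93 and 0.31, and for Cntn1 0.58 and 0.24. It was wider in Grb2_cKO also for Nrcam (0.61 and 0.44), Chl1 (0.53 and 0.41), Ncam1 (0.21 and 0.06) and Nfasc (0.15 and 0.055). The reverse held for Cntn4, at 0.20 in Grb2_cKO and 0.51 in controls, and for L1cam, at 0.15 and 0.37. Replicates 3 and 4 had higher values of Cntn6, Cntn1 and Ncam2 than replicates 1 and 2, and lower values of Cntn3. Six2, which marks nephron progenitors, was 10.2 and 10.1 in Grb2_cKO replicates 1 and 2 and 8.37 and 8.44 in replicates 3 and 4. Ptpro, a podocyte receptor gene, was 9.12 and 8.91 in replicates 1 and 2 and 9.88 and 9.93 in replicates 3 and 4. Both genes were picked after their values were seen, and other markers of their lists did not all split so. In Grb2_cKO replicates 1 to 4 the nephron progenitor marker Eya1 was 11.5, 11.9, 10.5 and 10.5. Lhx1 was 9.54, 9.86, 9.59 and 9.89, and Jag1 10.4, 10.5, 10.7 and 10.9. Of the podocyte markers Podxl was 11.1, 10.9, 11.5 and 11.5, and Wt1 10.6, 10.9, 10.8 and 10.9. The part of these genes in the members' spread was not tested. Grb2_cKO replicate 4 was the highest of its group for 5 members and the lowest for none, and replicate 2 was the highest for 4 and the lowest for 5.

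**Figure D3:**
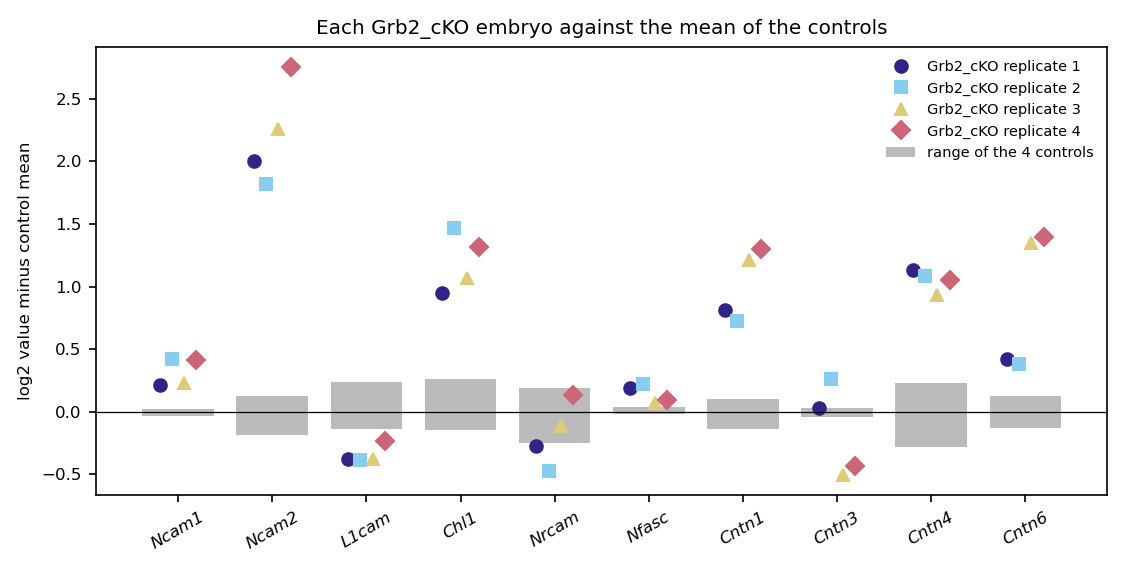
Value of each Grb2_cKO embryo minus the mean of the 4 controls (vertical axis, log2 units) for each member; grey boxes give the range of the 4 controls around their mean. Cntn6 and Cntn3 separate replicates 1 and 2 from replicates 3 and 4, in opposite directions, while the 4 embryos lie close together for Cntn4.

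The neighbours of these genes on the chromosomes were uneven too. In the RefSeq table Cntn3, Chl1, Cntn6 and Cntn4 follow each other on chromosome 6 with no other measured protein-coding gene between them. Chl1, Cntn6 and Cntn4 rose, and Cntn3 at one end and Il5ra, the next gene after Cntn4, did not pass (-0.16 and -0.19, limma adjusted p = 0.507 and 0.240). Further out, Pdzrn3, the gene next to Cntn3, and Crbn beyond Il5ra rose by 0.34 and 0.31 (adjusted p = 0.0054 and 0.0191). Neither passed with the Y-linked covariate (adjusted p = 0.119 and 0.135). Ppp4r2, next after Pdzrn3, fell, with a log2 fold change of -0.54 (adjusted p = 0.0018). Crbn also missed the threshold without control replicate 2 or 3 (0.28 in both cases, adjusted p = 0.0605 and 0.0552). Over the 2 measured protein-coding genes on each side of every member, 28 genes were no member. Of these 8 rose, 5 fell and 15 did not pass, with a median log2 fold change of -0.04. Over all genes 13.7% were called higher and 14.3% lower. Plet1 and Pts beside Ncam1 fell (-0.46 each), as did Tmem81 beside Nfasc (-0.40), while Lrrn2 beside Nfasc and Nova1 beside Nrcam rose (0.44 and 0.39). Around Cntn1, Slc2a13, Lrrk2 and Pdzrn4 rose by 0.71, 0.37 and 0.81 (adjusted p = 0.000387, 0.0319 and 0.00101), and Gxylt1 fell by 0.41 (adjusted p = 0.0083). In the model with the Y-linked covariate Slc2a13 passed, and Lrrk2, Pdzrn4 and Gxylt1 missed the threshold (adjusted p = 0.194, 0.0851 and 0.124). Lrrk2 also missed it when any 1 of control replicates 2, 3 and 4 or Grb2_cKO replicates 3 and 4 was left out (log2 fold change 0.31 to 0.38, adjusted p = 0.0668 to 0.0803). Around Ncam2, Chodl at 0.12, Tmprss15 at -0.19 and Mrpl39 at -0.18 did not pass (adjusted p = 0.649, 0.254 and 0.0705), and Jam2 rose by 0.75 (adjusted p = 0.000402) and passed with the Y-linked covariate (adjusted p = 0.0229). These neighbours were named after their values were seen.

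The members are long genes. Of the 10, 8 span over 200 kb in GRCm38.p6, Cntn4 the longest at 1023 kb. Nfasc spans 177 kb and L1cam 27.1 kb, still longer than 60.5% of protein-coding genes. L1cam fell, while Nrcam (276 kb) and Cntn3 (401 kb), among the long members, did not pass. Over all protein-coding genes the longest class leaned towards higher values, while the 3 shorter classes had medians of -0.01 to 0.01. Among 920 genes of 200 kb and over, 35.2% were called higher and 11.0% lower, with a median log2 fold change of 0.13. Among all 18984 protein-coding genes 14.8% were called higher and 15.6% lower. Without the members the share of long genes called higher was 34.9%. Among the long genes above the median level of all protein-coding genes 37.5% were called higher, and among those below it 31.7%. With the Y-linked covariate 14.1% of the long genes and 3.01% of all were called higher. With control replicate 3 as the only control the shares were 5.11% and 0.785%, and leaving out each embryo in turn gave 31.1% to 35.3% of the long genes. The length classes were drawn after the members' lengths had been seen, and the relation is a description across genes, which are not independent replicates.

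**Figure D4:**
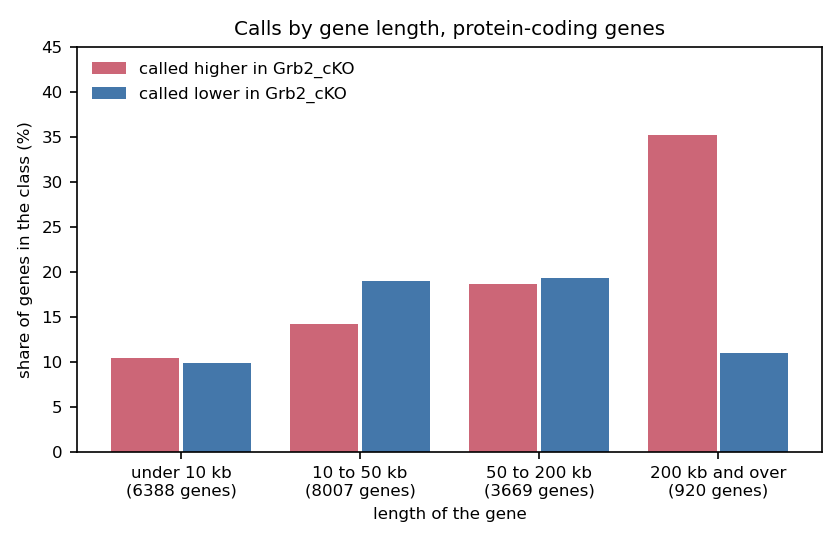
Share of protein-coding genes called higher or lower in Grb2_cKO (vertical axis, percent of the class, limma adjusted p under 0.05) by the length of the gene in 4 classes. Genes of 200 kb and over were called higher in 35.2% of cases and lower in 11.0%, while the shorter classes were nearer to balance.

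Genes that work with these families were followed through 5 lists, 74 of whose 77 genes were measured. Of these 20 rose, 8 fell and 46 did not pass in limma. Over all genes 13.7% were called higher and 14.3% lower, with a median log2 fold change of 0.01. The counts and medians of each list are to be set beside these values, and nothing is read from them. The Caspr genes encode partners that pair with contactins across or along the axon membrane. With the other contactins, 3 of 9 rose and none fell (median log2 fold change 0.14). Cntnap2 (Caspr2) rose by 1.57 (SE 0.19, adjusted p = 0.00039), Cntnap4 by 1.05 (SE 0.07, adjusted p = 3.01e-05) and Cntnap1 (Caspr, the partner of Cntn1) by 0.68 (SE 0.16, adjusted p = 0.0115). Cntn2 and Cntn5, the contactins outside the 10 members, stood at -0.09 and -0.14 (adjusted p = 0.576 and 0.341), and were named after their values were seen.

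Among other neural immunoglobulin adhesion genes 8 of 18 rose, 2 fell and 8 did not pass (median 0.19). Sdk1 and Sdk2, the sidekick genes of synaptic layer choice, rose by 1.13 (SE 0.09, limma adjusted p = 6.84e-05) and 0.73 (SE 0.08, adjusted p = 0.00024). Negr1 and Iglon5, lipid-anchored proteins of the IgLON family, rose by 0.57 and 0.52 (adjusted p = 0.000786 and 0.000828). With the Y-linked covariate Negr1 missed the threshold (adjusted p = 0.071) and Iglon5 passed it (0.0351).

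Surface partners of the members went both ways: 4 of 23 rose, 3 fell and 16 did not pass (median 0.02). Gdnf and Gfra1 fell, with log2 fold changes of -1.73 (SE 0.11) and -1.92 (SE 0.14). With all probe sets of a gene averaged, Gfra1 stood at -1.14 (limma adjusted p = 0.00055). GFRA1 is the receptor part that NCAM can share with RET in binding GDNF. Egfr, a receptor tyrosine kinase gene, rose by 0.98 (SE 0.07, limma adjusted p = 4.33e-05), and Aplp1, of the amyloid precursor family, by 1.05 (SE 0.12, adjusted p = 0.000271). Ptprg and Ptprz1, receptor phosphatases that bind contactins, stood at -0.05 and -0.13 (adjusted p = 0.707 and 0.381), and App, the ligand of CNTN4, at 0.17 (adjusted p = 0.0936). These 3 were named after their values were seen.

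Of the cytoplasmic partners 2 of 14 rose, 2 fell and 10 did not pass (median 0.11). Epb41l3, the protein 4.1B that holds Caspr to the membrane skeleton, rose by 0.71 (SE 0.08, limma adjusted p = 0.000209), and Dcx, a microtubule protein that binds neurofascin, by 0.27 (SE 0.09, adjusted p = 0.0379). Ezr and Rdx, which tie membrane proteins to actin, fell, with log2 fold changes of -0.48 (SE 0.13) and -0.26 (SE 0.07) and adjusted p = 0.0236 and 0.0165. Leaving out 1 embryo ended the call of Dcx for control replicates 2, 3 and 4 and Grb2_cKO replicates 1, 2 and 4 (0.21 to 0.30, adjusted p = 0.0501 to 0.0967). It ended that of Ezr for control replicates 2 and 3 and Grb2_cKO replicate 1 (-0.47 to -0.45, adjusted p = 0.0561 to 0.0599). Dcx missed the threshold with median centring too (0.27, adjusted p = 0.0594), and with the Y-linked covariate stood at 0.46 (adjusted p = 0.0663). The ankyrin genes Ank1, Ank2 and Ank3 stood at 0.32, 0.21 and -0.13 (adjusted p = 0.134, 0.0557 and 0.248), named after their values were seen.

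Of the enzymes that modify or cut these proteins 3 of 10 rose, 1 fell and 6 did not pass (median 0.22). Bace1, the protease that cuts CHL1, rose by 0.73 (SE 0.12, limma adjusted p = 0.0019), and the convertase genes Pcsk5 and Furin by 0.63 (SE 0.07) and 0.31 (SE 0.09), with adjusted p = 0.000288 and 0.0330. With all probe sets of a gene averaged, Bace1 stood at 0.49 (limma adjusted p = 0.0030). The call of Furin was lost with median centring (0.31, adjusted p = 0.0708) and without any 1 of control replicates 1, 2 and 3 or Grb2_cKO replicates 3 and 4 (0.26 to 0.34, adjusted p = 0.0505 to 0.0846). Adam17, a sheddase of L1 and NCAM, fell by 0.30 (SE 0.06, adjusted p = 0.0071). St8sia2 and St8sia4, which build polysialic acid on NCAM, stood at 0.24 and -0.12 (adjusted p = 0.0659 and 0.342), named after their values were seen. Of the related genes called, Cntnap1, Rdx, Ezr, Dcx, Bace1, Adam17 and Furin were among those that missed the threshold with the Y-linked covariate, and 13 of the 74 passed in that model.

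**Figure D5:**
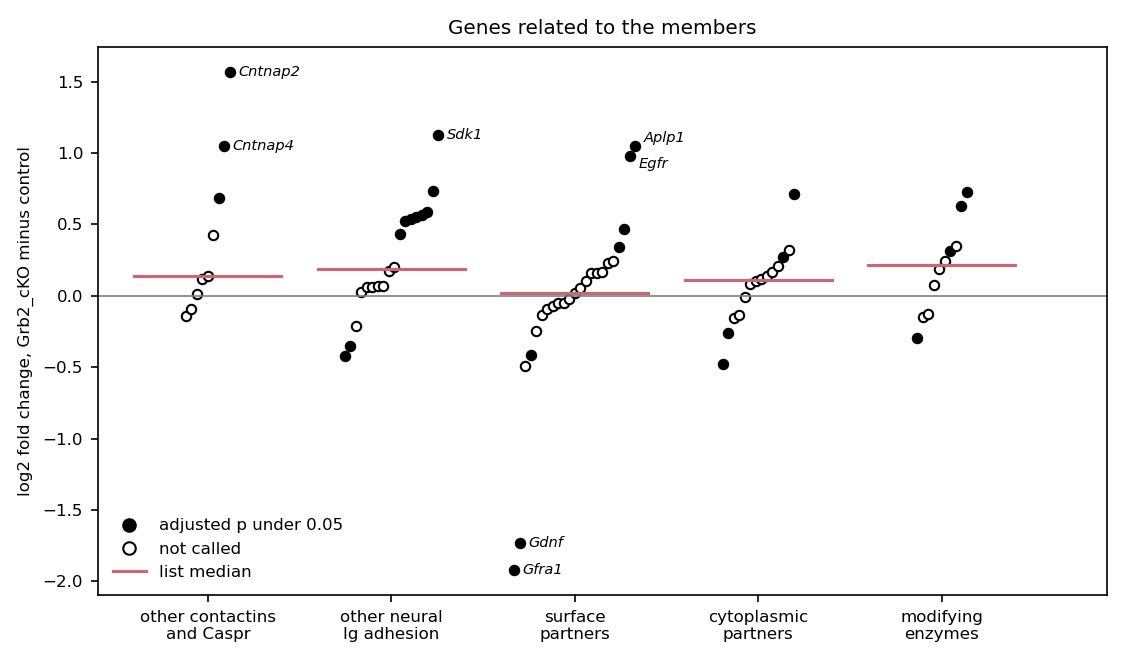
Log2 fold change, Grb2_cKO minus control (vertical axis), of each measured gene in 5 lists of related genes; filled points had a limma adjusted p under 0.05, and the red line is the list median. Cntnap2, Cntnap4, Sdk1, Aplp1 and Egfr stand highest, Gdnf and Gfra1 lowest, and the medians lie between 0.02 and 0.22.

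Markers of nerve cells moved unevenly beside the members. The mean level of 13 neuron markers ranged from 6.57 to 6.72 over the controls and from 6.94 to 7.03 over the Grb2_cKO embryos. The median log2 fold change of these markers was 0.14, and the mean level also holds the far larger rise of Stmn2. Of these markers 4 rose, 1 fell and 8 did not pass, against 13.7% called higher and 14.3% lower over all genes. Stmn2 rose by 2.48 (SE 0.16), Snap25 by 1.02 (SE 0.10) and Elavl4 fell by 0.93 (SE 0.10). The other markers that rose were Dbh by 0.58 and Syp by 0.41 (limma adjusted p = 0.0073 and 0.0027). Those that did not pass were Tubb3, Elavl3, Th, Prph, Nefl, Nefm, Gap43 and Uchl1, with differences of -0.12 to 0.22 and adjusted p of 0.072 to 0.994. For 10 markers of glia and neural crest the mean level ranged from 7.23 to 7.35 over the controls and from 7.18 to 7.34 over the Grb2_cKO embryos. Fabp7 rose by 0.38 (SE 0.09), Erbb3 and Mbp fell, with log2 fold changes of -0.74 (SE 0.14) and -0.28 (SE 0.07) (limma adjusted p = 0.003 and 0.0157). The other 7 did not pass. Stmn2, Snap25 and Elavl4 passed with the Y-linked covariate, while Dbh, Syp, Fabp7, Erbb3 and Mbp did not (adjusted p = 0.111, 0.172, 0.188, 0.112 and 0.324).

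Markers of other kidney cells also moved with the groups, where 28.1% of all genes were called. Mean levels were lower in every Grb2_cKO embryo than in every control for 11 ureteric markers (8.48 to 8.82 against 9.49 to 9.57) and 12 nephron progenitor markers (9.25 to 9.60 against 10.1 to 10.3). They were higher for 12 stromal markers (11.1 to 11.2 against 10.5 to 10.7), 6 podocyte markers (9.21 to 9.84 against 8.65 to 8.83) and 10 endothelial markers (10.1 to 10.3 against 9.75 to 9.83). The same held for 10 macrophage markers (8.18 to 8.57 against 7.41 to 7.53) and 8 erythroid markers (7.49 to 7.97 against 6.85 to 7.35). In limma 9 ureteric and 10 nephron progenitor markers were called lower. Called higher were 10 stromal, 6 podocyte, 7 endothelial, 8 macrophage and 5 erythroid markers, but Tfrc of the erythroid list fell (-0.91, adjusted p = 0.00015). With the Y-linked covariate 5 ureteric and 3 nephron progenitor markers were called lower. Called higher were then 5 stromal, 1 podocyte, 0 endothelial, 5 macrophage and 1 erythroid markers, against 5.62% of all genes called. No listed marker is at 0 on these arrays, which carry no detection call. The part of any of these cell types in the members' differences was not tested.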

How the data were processed

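The deposited table holds log2 probe-set values of 41345 probe sets on 8 arrays, processed by the authors before deposit; that they are log2 was read from the values (1.25 to 14.08). Transcriptome Analysis Console is the only tool named, per the submitters' processing notes. Background correction, summarization and normalization: not given in the sources used here. Per the labels' protocols, 200 ng of total RNA was amplified with an Ambion WT kit. Nothing was normalized again.

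Probe sets with 1 symbol (23521) were named through the platform annotation, symbols were updated through Entrez identifiers (GRCm38.p6 RefSeq table), and the probe set of highest mean stood for each of 22180 genes. Grb2_cKO was compared with control by limma 3.58.1 (R 4.3.3) with empirical Bayes moderation and Benjamini-Hochberg adjustment over all genes, threshold 0.05. Fold changes are Grb2_cKO minus control with moderated SE. The model was tested on simulated data.

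The members and lists were chosen with earlier results of these data known. Genes named are the members, Grb2, up to 4 called genes of smallest p per related list, up to 3 markers of largest change for the neuron and glia lists, and the Y-linked genes. Kidney markers, chromosome neighbours and all other neuron markers were named besides, after their values were seen; others are marked. Of the listed genes, those with no single-symbol probe set were not analysed here. Alternatives were quantile normalization, median centring, leaving out the dimmest 25% of genes, averaged probe sets per gene, every probe set tested, a trended robust spread, array weights, the Y-linked covariate, control replicate 3 as sole control, and each embryo left out in turn. A scan batch was not tested.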

Additional observations from a re-analysis of the deposited data

Results flagged for a closer look

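In 3 of the 60 groups of 4 embryos looked at (both groups of the 10 members, Grb2 and 19 related genes), 1 embryo lay far from the other 3, and chance marks about 1 group in 20. L1cam was 8.50 in Grb2_cKO replicate 4 and 8.35 to 8.36 in the other Grb2_cKO embryos, so that embryo lay nearest to the controls. Dcx was 8.69 in control replicate 3 and 8.91 to 8.95 in the other controls. Adam17 was 9.42 in Grb2_cKO replicate 3 and 9.26 to 9.28 in the others.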

How the results depend on the processing

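Counting Ncam2, for which no test is reported, 4 members, 13 related genes and 1246 of all genes passed with the Y-linked covariate, against 7, 28 and 6227 without it, and Grb2 stood at -0.40 (limma adjusted p = 0.10). With control replicate 3 as the only control, assumed to vary like the Grb2_cKO embryos, the counts were 2, 5 and 285, and Grb2 stood at -0.41 (adjusted p = 0.164). Nrcam turned to 0.071 and 0.069 in these models. With the lone control Chl1 stood at 1.25 and Cntn1 at 1.15, and neither passed. Under the other 15 alternatives, which include leaving out each embryo, the counts stayed within 1.5 times and no member changed sign. Leaving out 1 embryo gave 5 to 6 of the members other than Ncam2, 25 to 30 related genes and 4894 to 5955 genes called. Ncam2 stood between 2.03 and 2.39 under all 17 alternatives. No paired analysis was possible because the labels pair no Grb2_cKO embryo with a control. The replicate numbers were given here, in the order of the samples. Probe sets near background could not be told from expressed ones.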
